A study of Homo sapiens with 9 samples.

Results

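The 32 genes described here encode enzymes that make cholesterol and fatty acids and the proteins that control them, and were taken by gene symbol from a list of 32 names. All 32 were found among the 58884 genes of the count table, and all 32 passed the filter on low counts, which kept 13018 genes. All members except CYP51A1 passed it in at least 1 library of each line. RNA-seq was performed in MDA-MB-231, a human claudin-low breast cancer cell line (Par), and in sub-populations of it that had been selected in mice for colonization of the lung (LM2) or the brain (BrM2). The 3 lines were grown as monolayers in the same DMEM medium with serum for 3 days, with no treatment and no genetic change that the labels name, and each had 3 biological replicates from different passages. LM2 and BrM2 are each 1 sub-population derived from 1 parental line, so that a difference between lines cannot be told apart from the history of that sub-population, and fewer cells with a transcript cannot be told apart from less transcript per cell.

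Cholesterol is built from acetyl-CoA. The early enzymes lead through mevalonate to farnesyl diphosphate, 2 molecules of which are joined to squalene, squalene is closed to the ring of lanosterol, and lanosterol is trimmed and rearranged to cholesterol. Fatty acids are built from the same acetyl-CoA by carboxylation, chain assembly, elongation and desaturation. Both branches are controlled by SREBP transcription factors, which are held in the endoplasmic reticulum by INSIG and SCAP proteins when sterols are plentiful and are cleaved and sent to the nucleus when sterols are scarce.

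SREBP proteins are known to bind sterol regulatory elements and E-boxes, commonly beside a box for the factor NF-Y, and the promoters were read for these motifs because the members are textbook targets of one system. RefSeq promoters of 300 bases, from 250 bases before to 50 bases after the transcription start, were found for 28 of the 32 members, but not for ACAT2, FDFT1, SQLE and FASN. On both strands, the sterol regulatory element TCACNCCAC was present in 1 of 28 promoters (3.57%), against 1.15% of 27305 promoters of all genes. Only exact matches of these letters were counted, so an element with other letters, or outside the 300 bases, would be missed. The E-box CACGTG was present in 4 of 28 (14.3%, against 7.43%) and the NF-Y box CCAAT, which reads ATTGG on the other strand, in 18 of 28 (64.3%, against 35.7%). In the promoters of the members, no match of one motif overlapped a match of another motif. The promoters with the sterol regulatory element (SREBF2) and of 3 members that differed between lines (INSIG1, EBP and SCD) are given from 250 bases to 1 base before the start, 5′ to 3′ on the plus strand of GRCh38.p14, with the motifs in capitals. They lie at chr22:41832855-41833104, chr7:155297628-155297877, chrX:48521558-48521807 and chr10:100346983-100347232.
SREBF2: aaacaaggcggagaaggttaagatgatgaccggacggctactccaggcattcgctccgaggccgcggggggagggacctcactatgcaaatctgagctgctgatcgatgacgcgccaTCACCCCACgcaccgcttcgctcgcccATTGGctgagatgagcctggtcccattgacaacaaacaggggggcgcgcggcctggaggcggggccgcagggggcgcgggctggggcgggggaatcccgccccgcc
INSIG1: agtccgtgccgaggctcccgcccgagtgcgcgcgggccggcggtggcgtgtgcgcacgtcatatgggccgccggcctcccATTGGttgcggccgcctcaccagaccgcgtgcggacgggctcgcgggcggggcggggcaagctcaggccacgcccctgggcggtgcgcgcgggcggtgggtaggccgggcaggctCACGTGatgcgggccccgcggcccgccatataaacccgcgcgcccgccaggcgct
EBP: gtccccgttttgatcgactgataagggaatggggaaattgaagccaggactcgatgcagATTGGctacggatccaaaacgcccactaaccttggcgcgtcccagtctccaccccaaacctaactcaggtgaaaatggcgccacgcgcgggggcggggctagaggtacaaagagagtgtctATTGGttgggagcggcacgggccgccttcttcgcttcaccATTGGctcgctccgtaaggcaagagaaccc
SCD: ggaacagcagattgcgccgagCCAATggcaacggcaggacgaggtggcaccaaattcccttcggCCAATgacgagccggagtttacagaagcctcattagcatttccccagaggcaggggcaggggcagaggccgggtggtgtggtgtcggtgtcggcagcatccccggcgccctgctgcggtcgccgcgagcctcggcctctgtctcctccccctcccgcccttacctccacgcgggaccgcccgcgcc
The element of SREBF2 began 133 bases before the start and was followed by an NF-Y box at 106 bases before it. INSIG1 held an NF-Y box at 170 and an E-box at 55 bases before the start, EBP held 3 NF-Y boxes and SCD held 2. These are matches of letters and were not tested for binding. AACS, which also differed between lines, had a promoter with no match of these motifs and is not shown.

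Counts on genes totalled 14371858 to 24511786 per library. Expression is given as CPM, counts scaled to a common library size after TMM normalization, and 3 counts corresponded to 0.115 to 0.221 CPM. The epithelial keratins KRT8 and KRT18 were abundant in every library (306 to 1180 and 269 to 713 CPM), while the epithelial markers CDH1 and EPCAM were low (0.144 to 1.94 and 2.73 to 7.94 CPM) and the mesenchymal marker VIM was high (637 to 1870 CPM). VIM was higher in LM2 and BrM2 than in Par (log2 fold change 1.08 and 1.05, adjusted p = 0.019 and 0.016), and the epithelial keratin KRT19 was lower in LM2 (29.1 to 72.8 against 169 to 252 CPM in Par, -2.18, adjusted p = 0.017). The log2 fold changes of KRT8, KRT18 and EPCAM were -0.72, -0.02 and -0.57 in LM2 and -0.75, -0.08 and -0.23 in BrM2. Of these 3, 0 were called in the model of the lines alone. With a block for replicate number, KRT8 was lower in LM2 (-0.82, adjusted p = 0.0049) and in BrM2 (-0.79, adjusted p = 0.0046). EPCAM was then lower in LM2 (-0.61, adjusted p = 0.022) but was not called in BrM2, and KRT18 was called in neither. The part of these markers in the results below was not tested. PTPRC, the defining leukocyte marker, had 0 to 6 counts, ALB, a hepatocyte marker, had 0 to 4, and PECAM1, an endothelial marker, had 39 to 183.

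The first replicate of each line stood apart from the other replicates. It differed for 25 of the 32 members (18 higher, 7 lower) in a model with a term for line, as did 72.6% of all tested genes (35.9% higher, 36.7% lower). The gap between replicate 1 and the others rose with transcript GC content. The Spearman correlation was 0.90 over the 32 members and 0.82 over 12952 tested genes, all of which share the 9 libraries. STARD4, with 38.3% GC, was lower in replicate 1 by a log2 difference of -1.43, and SREBF1, with 63.4% GC, was higher by 1.06. The fits below are therefore given in 3 forms. They are the model with the 3 lines and all 9 libraries, the same model with a block for replicate number (the block), and the model without the first replicates. The first replicates varied together across lines, and the block removes what replicates of equal number share. Whether replicates 2 and 3 are paired across lines cannot be told from the values.

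**Figure D1:**
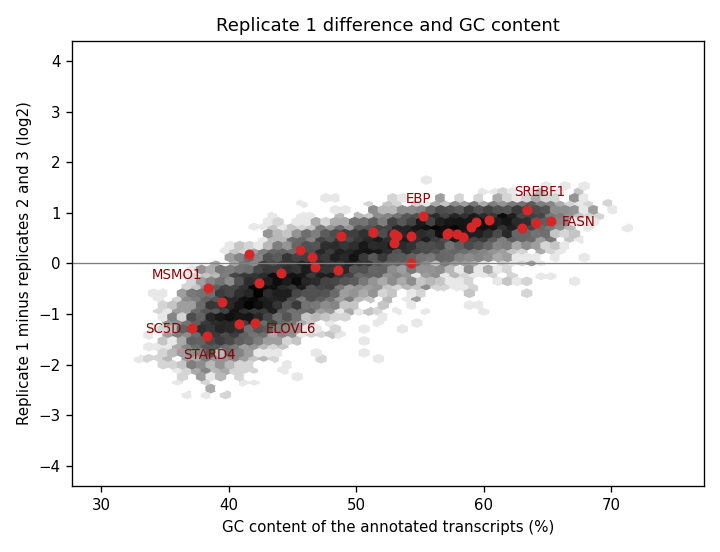
Difference of replicate 1 from replicates 2 and 3 (log2, y axis) against the GC content of the annotated transcripts (percent, x axis), with tested genes as grey hexagons, darker where genes are denser, and the 32 members as red points. Members with little GC, such as STARD4 at -1.43, lie below 0 and members with much GC, such as SREBF1 at 1.06, lie above it.

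In LM2, 24 of the 32 members had a fitted log2 fold change below 0 against Par, with a median of -0.29, against a median of 0.01 over all tested genes. SCD was the 1 member of 32 that passed edgeR's test at an adjusted p under 0.05, and it was lower, where 8.67% of all tested genes passed and 4.51% were lower. At an unadjusted p under 0.05 there were 6 members, and 20.2% of all tested genes. With the replicate block, 11 members were lower and 1 was higher (34.5% of all tested genes called, 19.0% lower and 15.5% higher). Without replicate 1, 15 members were lower and 0 higher (33.0% called, 17.2% lower), which is 46.9% of the members. The 11 and the 15 include CYP51A1, whose calls rest in part on the filter. CYP51A1 passed it in 0 LM2 libraries and, without replicate 1, only in a Par library. The 15 members lower without replicate 1 came from every step, with 3 of 5 regulators, 2 of 8 genes of the steps to farnesyl diphosphate, 1 of 3 of those to lanosterol, 4 of 8 of those to cholesterol and 5 of 8 fatty acid genes.

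In BrM2, 23 of 32 members were fitted below 0 against Par, with a median of -0.58, against -0.02 over all tested genes. INSIG1, AACS, FDFT1 and EBP fell (4 lower, 0 higher), where 13.2% of all tested genes were called and 7.00% were lower. With RLE or upper-quartile normalization, or with the filterByExpr filter, INSIG1 was the 1 member left, and AACS, FDFT1 and EBP had adjusted p values of 0.050 to 0.066. With the replicate block, 17 members were lower and 0 higher (42.7% of all tested genes called, 23.2% lower). The same numbers, 17 and 0, were found without replicate 1 (40.4% called, 19.5% lower), which is 53.1% of the members. The 17 without replicate 1 include CYP51A1, which in those libraries passed the filter only in Par, so its call rests on that selection. Of these 17, 6 were among the 8 genes from lanosterol to cholesterol, 3 were regulators, 3 led to farnesyl diphosphate, 2 led to lanosterol and 3 made fatty acids. LM2 and BrM2 were compared with the same Par libraries, so the 2 comparisons are not independent.

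Read by replicate number, 25 members were lower in LM2 and 1 was higher in both replicates 2 and 3 (41.4% and 42.5% of all tested genes), and in all 3 replicate numbers 11 were lower and 1 was higher (32.3% and 29.4%). For BrM2 the numbers were 25 lower and 2 higher in replicates 2 and 3 (37.2% and 38.0%) and 15 lower and 2 higher in all 3 (33.8% and 29.0%). The libraries of the lines did not overlap for 7 members in LM2 (25.1% of all tested genes) and 8 in BrM2 (31.3%). Leaving out all libraries of replicate 2, or all of replicate 3, left 0 members called by edgeR in each comparison and 1 to 4 at an unadjusted p under 0.05, where 0.407% to 2.07% of all tested genes were called.

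**Figure D2:**
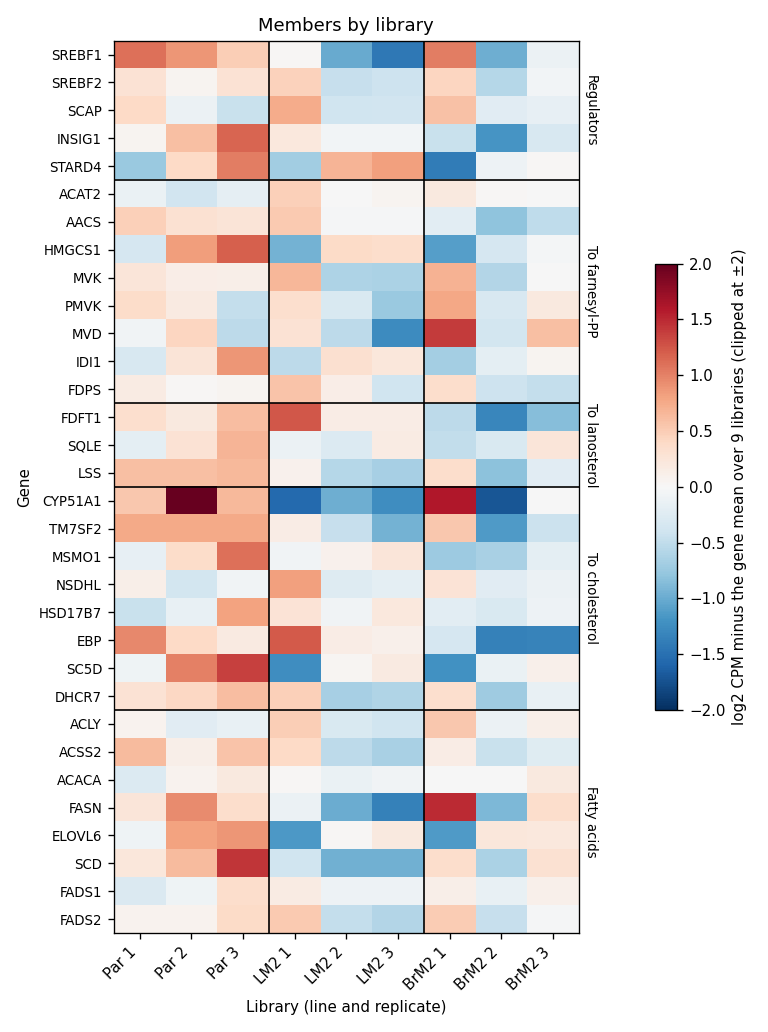
log2 CPM of each member (rows, grouped by step) in each library (columns), minus the mean of the gene over the 9 libraries and clipped at 2 in either direction, with red above and blue below the mean. Par libraries are red for LSS and TM7SF2, all BrM2 libraries are blue for FDFT1 and EBP, and the first replicates differ from the others within each line.

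**Figure D3:**
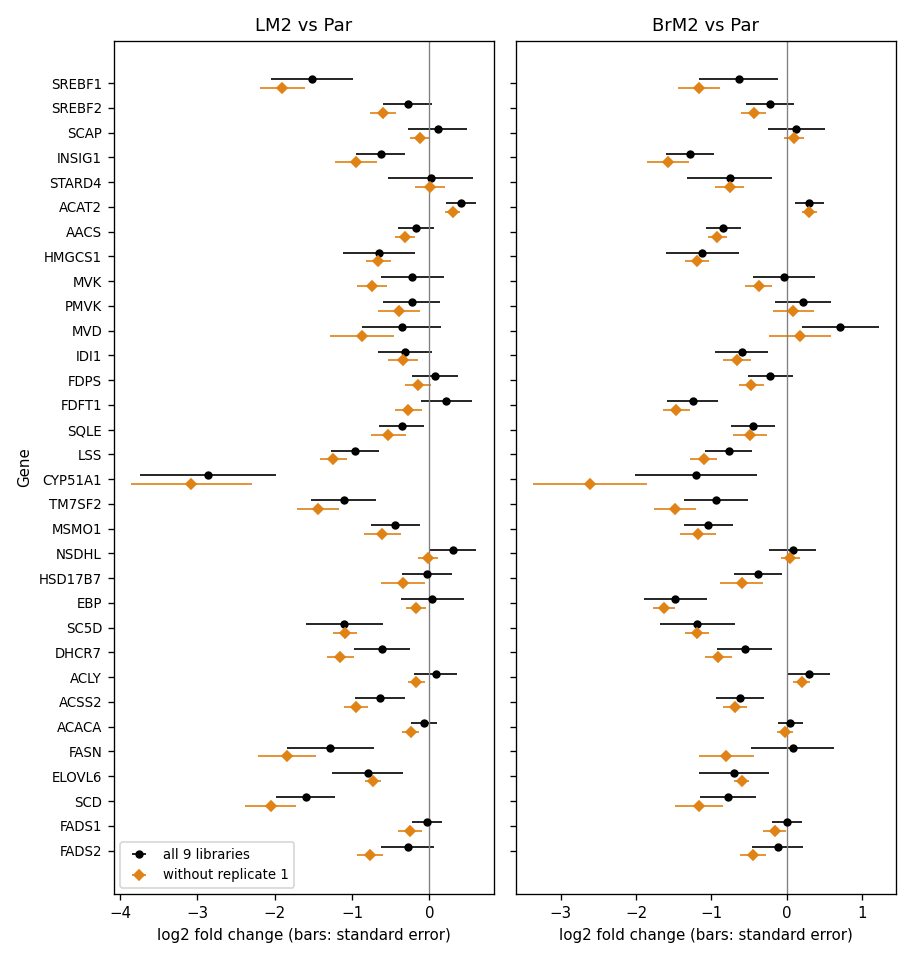
log2 fold changes of the 32 members in LM2 (left) and BrM2 (right) against Par, with bars for the standard error, from all 9 libraries (black) and without replicate 1 (orange). Without replicate 1, 30 members in LM2 and 26 in BrM2 lie below 0, and the standard errors are smaller for most members.

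Among the regulators, INSIG1 was lower in BrM2 and SREBF1 was low in LM2. INSIG1 encodes the sterol-sensitive anchor that retains SCAP and SREBP in the endoplasmic reticulum and is itself a target of SREBP. Its level was 147, 215 and 318 CPM in Par replicates 1, 2 and 3, 164, 137 and 137 CPM in LM2, and 104, 62.3 and 114 CPM in BrM2. All BrM2 libraries were below all Par and LM2 libraries, while LM2 overlapped Par. INSIG1 fell in BrM2 to 41.3% of Par, a log2 fold change of -1.28 ± 0.32 (SE, n = 3; adjusted p = 0.030), and -1.58 ± 0.28 without replicate 1 (adjusted p = 0.0030). The call was lost when Par 2, Par 3, LM2 2, BrM2 1, BrM2 2 or BrM2 3 was left out (adjusted p = 0.050 to 0.11). In LM2 the log2 fold change was -0.63 ± 0.32 (adjusted p = 0.32), and -0.95 ± 0.27 without replicate 1 (adjusted p = 0.030).

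SREBF1 encodes the SREBP that mainly drives fatty acid genes. It was at 186, 161 and 123 CPM in Par, 88.3, 43.5 and 32.5 CPM in LM2 and 177, 44.1 and 80.4 CPM in BrM2. Every LM2 library was below every Par library, and BrM2 overlapped both lines because its first replicate was near Par and the others were not. For LM2 the log2 fold change was -1.52 ± 0.53 with all libraries (adjusted p = 0.13), -1.65 ± 0.27 with the block (adjusted p = 0.0010) and -1.90 ± 0.29 without replicate 1 (adjusted p = 0.0022). For BrM2 it was -0.64 ± 0.52 (adjusted p = 0.54), -0.83 ± 0.27 with the block (adjusted p = 0.030) and -1.17 ± 0.28 without replicate 1 (adjusted p = 0.012).

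STARD4, a carrier of cholesterol between membranes, was at 29.6, 65.5 and 101 CPM in Par, 30.6, 79.8 and 88.1 CPM in LM2 and 18.9, 46.4 and 50.6 CPM in BrM2. BrM2 was the lowest line at each replicate number, although the lines overlapped as groups. Its log2 fold change in BrM2 was -0.76 ± 0.56 (adjusted p = 0.48) and -0.72 ± 0.13 with the block (adjusted p = 0.0013). SREBF2, which encodes the SREBP that mainly drives cholesterol genes, and SCAP, the escort of both SREBPs, passed neither of these tests in any comparison. Their log2 fold changes against Par were -0.28 and -0.22 for SREBF2 and 0.11 and 0.13 for SCAP, in LM2 and BrM2 respectively. Without replicate 1, SREBF2 was lower in LM2 (-0.60 ± 0.17, adjusted p = 0.029).

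Of the 8 genes that lead from acetyl-CoA to farnesyl diphosphate, AACS fell in BrM2. AACS activates acetoacetate and so feeds ketone carbon into lipid synthesis. It was at 74.3, 66.2 and 64.0 CPM in Par, 76.8, 52.3 and 52.3 CPM in LM2 and 46.3, 30.5 and 37.6 CPM in BrM2, and all BrM2 libraries were below those of the other lines. Its log2 fold change in BrM2 was -0.84 ± 0.23 (adjusted p = 0.045), or 55.9% of Par, and -0.92 ± 0.13 without replicate 1 (adjusted p = 0.0012). Every single library left out ended this call, other than LM2 1 and BrM2 1 (adjusted p = 0.063 to 0.19).

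HMGCS1, which condenses acetoacetyl-CoA to HMG-CoA, was at 33.6, 75.8 and 97.5 CPM in Par, 22.2, 55.4 and 54.3 CPM in LM2 and 19.9, 33.6 and 41.3 CPM in BrM2. At each replicate number Par was highest and BrM2 lowest. The log2 fold changes were -0.65 ± 0.47 in LM2 and -1.12 ± 0.48 in BrM2 without the block (unadjusted p = 0.21 and 0.044, adjusted p = 0.54 and 0.18), and passed the adjusted threshold with the block (-0.63 ± 0.14 and -1.06 ± 0.14, adjusted p = 0.0054 and 0.00016). Of the exon bases of HMGCS1, 37.7% overlap ENSG00000261604 on the opposite strand, which had a mean of 0 counts, and the strand that was counted is not given in the sources used here, so the counts are uncertain. IDI1, an isomerase that makes dimethylallyl diphosphate, was at 71.9, 108 and 166 CPM in Par, 63.0, 112 and 105 CPM in LM2 and 56.3, 78.4 and 93.2 CPM in BrM2. BrM2 was again lowest at each number, and the log2 fold change in BrM2 was -0.60 ± 0.35 (adjusted p = 0.35) and -0.56 ± 0.14 with the block (adjusted p = 0.0092). IDI2-AS1 overlaps 15% of its exon bases on the opposite strand, with the same uncertainty.

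ACAT2, the cytosolic thiolase that makes acetoacetyl-CoA, ran the other way. It was at 115, 97.3 and 111 CPM in Par, 175, 125 and 131 CPM in LM2 and 144, 128 and 125 CPM in BrM2, and all libraries of both sublines were above all Par libraries. It was the 1 member higher in LM2 with the block (log2 fold change 0.40 ± 0.11, adjusted p = 0.020), with 0.41 ± 0.19 without it (adjusted p = 0.26) and 0.30 ± 0.10 without replicate 1 (adjusted p = 0.058). In BrM2 it was 0.30 ± 0.11 with the block (adjusted p = 0.058). Of its exon bases, 17.2% overlap TCP1 on the opposite strand, so its counts are uncertain in the same way.

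MVD, which decarboxylates mevalonate diphosphate, was at 20.1, 28.5 and 14.7 CPM in Par, 25.8, 14.7 and 8.85 CPM in LM2 and 55.6, 16.3 and 31.8 CPM in BrM2. BrM2 was above LM2 at each replicate number and scattered around Par. The difference between BrM2 and LM2 was 1.07 ± 0.51 (adjusted p = 0.28), 1.11 ± 0.36 with the block (adjusted p = 0.031) and 1.05 without replicate 1 (adjusted p = 0.086). The kinases MVK and PMVK and the synthase FDPS passed in no comparison, with or without the block, with log2 fold changes against Par between -0.23 and 0.22. MVK was lower in LM2 without replicate 1 (-0.74 ± 0.19, adjusted p = 0.018). RUSC1-AS1 overlaps 18.6% of the exon bases of FDPS on the opposite strand.

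The 3 genes from farnesyl diphosphate to lanosterol were fitted below Par in BrM2, and FDFT1 fell. FDFT1 encodes squalene synthase, the enzyme that commits farnesyl diphosphate to sterols. It was at 200, 183 and 243 CPM in Par, 376, 177 and 176 CPM in LM2 and 111, 64.2 and 87.8 CPM in BrM2. All BrM2 libraries were below all libraries of the other lines, and the LM2 libraries ranged on both sides of Par, with the first replicate highest. FDFT1 fell in BrM2 to a log2 fold change of -1.25 ± 0.34 against Par (adjusted p = 0.041) and of -1.47 ± 0.34 against LM2 (adjusted p = 0.031). These were -1.47 ± 0.18 and -1.20 without replicate 1 (adjusted p = 0.00055 and 0.0021). The call against Par was lost without Par 1, Par 2, Par 3, LM2 2, BrM2 2 or BrM2 3 (adjusted p = 0.051 to 0.17), and that against LM2 without Par 1, Par 2, Par 3, BrM2 2 or BrM2 3 (adjusted p = 0.051 to 0.12).

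LSS, which closes squalene epoxide to lanosterol, was at 256, 257 and 264 CPM in Par, 180, 114 and 106 CPM in LM2 and 215, 95.1 and 144 CPM in BrM2. Its Par libraries were close together and above every library of both sublines. The log2 fold change was -0.96 ± 0.31 in LM2 and -0.77 ± 0.31 in BrM2 (adjusted p = 0.11 and 0.16), and -1.02 ± 0.19 and -0.85 ± 0.19 with the block (adjusted p = 0.0024 and 0.0048). Without replicate 1 it was -1.24 ± 0.18 and -1.10 ± 0.18 (adjusted p = 0.0020 and 0.0022). SQLE, the epoxidase that acts before LSS, was at 19.1, 26.6 and 34.9 CPM in Par, 20.2, 18.1 and 24.6 CPM in LM2 and 15.6, 17.6 and 25.8 CPM in BrM2. BrM2 was below Par at each number, by -0.45 ± 0.15 with the block (adjusted p = 0.034) and by -0.49 ± 0.23 without replicate 1 (adjusted p = 0.13).

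Between lanosterol and cholesterol, 7 of 8 genes were fitted below Par in BrM2 and 6 of 8 in LM2, and EBP fell in BrM2. EBP encodes the sterol isomerase that moves the ring double bond. It was at 56.8, 38.5 and 33.2 CPM in Par, 68.7, 32.3 and 31.3 CPM in LM2 and 23.2, 11.4 and 11.6 CPM in BrM2. All BrM2 libraries were below those of the other lines, and Par and LM2 overlapped. EBP fell in BrM2 by -1.48 ± 0.42 against Par (adjusted p = 0.049), -1.53 ± 0.14 with the block (adjusted p = 1.1e-05) and -1.63 ± 0.14 without replicate 1 (adjusted p = 0.00011), on the log2 scale. Against LM2 the values were -1.52 ± 0.42 (adjusted p = 0.062) and -1.50 ± 0.14 with the block (adjusted p = 2.2e-05). Every single library left out ended the call against Par, other than LM2 1 and BrM2 1 (adjusted p = 0.058 to 0.19). A gene on the same strand, ENSG00000286268, shares 36.4% of the exon bases of EBP and had a mean of 1 count, so reads counted on neither gene are not known.

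SC5D, which places the double bond of the next step, was at 33.4, 71.3 and 91.6 CPM in Par, 15.1, 36.4 and 40.4 CPM in LM2 and 15.3, 32.5 and 38.2 CPM in BrM2. The groups overlapped, but at each replicate number both sublines were below Par by a log2 ratio between -0.97 and -1.26. With the block, its log2 fold change was -1.10 ± 0.12 in LM2 and -1.18 ± 0.12 in BrM2 (adjusted p = 4.4e-05 and 2.1e-05), where the unblocked model gave -1.10 ± 0.50 and -1.19 ± 0.50 (adjusted p = 0.27 and 0.18). DHCR7, the reductase of the last step of one branch, was at 140, 153 and 175 CPM in Par, 159, 72.2 and 75.4 CPM in LM2 and 144, 69.9 and 103 CPM in BrM2. The first replicates lay between 140 and 159 CPM and the other replicates of both sublines were below Par, with log2 fold changes of -1.15 ± 0.18 in LM2 and -0.91 ± 0.18 in BrM2 without replicate 1 (adjusted p = 0.0024 and 0.0048). All libraries together gave -0.61 ± 0.36 and -0.56 ± 0.36 (adjusted p = 0.42 and 0.41).

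MSMO1, a methyl sterol oxidase, was at 56.3, 81.4 and 136 CPM in Par, 60.4, 67.2 and 74.8 CPM in LM2 and 38.2, 40.2 and 54.9 CPM in BrM2. All BrM2 libraries were below those of both other lines, with a log2 fold change of -1.04 ± 0.32 against Par (adjusted p = 0.067) and -0.98 ± 0.17 with the block (adjusted p = 0.00088). TM7SF2, a sterol reductase, was at 10.6 CPM in each Par library, 6.95, 4.53 and 3.26 CPM in LM2 and 9.14, 2.87 and 4.65 CPM in BrM2. Neither subline overlapped Par, and the log2 fold changes with the block were -1.19 ± 0.28 in LM2 and -1.07 ± 0.28 in BrM2 (adjusted p = 0.0076 and 0.011), against -1.11 ± 0.42 and -0.94 ± 0.42 without it (adjusted p = 0.17 and 0.21).

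CYP51A1, the lanosterol demethylase, had few counts and passed the filter on low counts in 1 Par library and 1 BrM2 library, with 0 in LM2, so that its test against LM2 rests in part on that selection. It is counted among the members lower in LM2 with the block and among those lower in both sublines without replicate 1. There were 20, 98 and 29 counts in Par, 5, 9 and 8 in LM2 and 30, 5 and 15 in BrM2, and the log2 fold change in LM2 was -2.87 ± 0.88 (adjusted p = 0.087), -2.77 ± 0.79 with the block (adjusted p = 0.020) and -3.08 ± 0.78 without replicate 1 (adjusted p = 0.019). Without Par 2, the library with 98 counts, it was -1.81 (adjusted p = 0.35). In BrM2 it was -1.21 ± 0.81 (adjusted p = 0.43), and -2.61 ± 0.76 without replicate 1 (adjusted p = 0.026). Among the libraries kept without replicate 1, CYP51A1 was over the filter only in Par 2. Its values without replicate 1 therefore rest on that selection in both sublines. ENSG00000285772 shares 68.2% of its exon bases on the same strand and had 0 counts, and 67.5% of the 50-base stretches of CYP51A1 transcripts occur in another gene, so these counts do not measure the whole transcript. NSDHL, a sterol dehydrogenase, and HSD17B7, a ketone reductase, passed no test in any comparison. Their log2 fold changes were 0.30 and -0.03 in LM2 and 0.08 and -0.38 in BrM2.

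**Figure D4:**
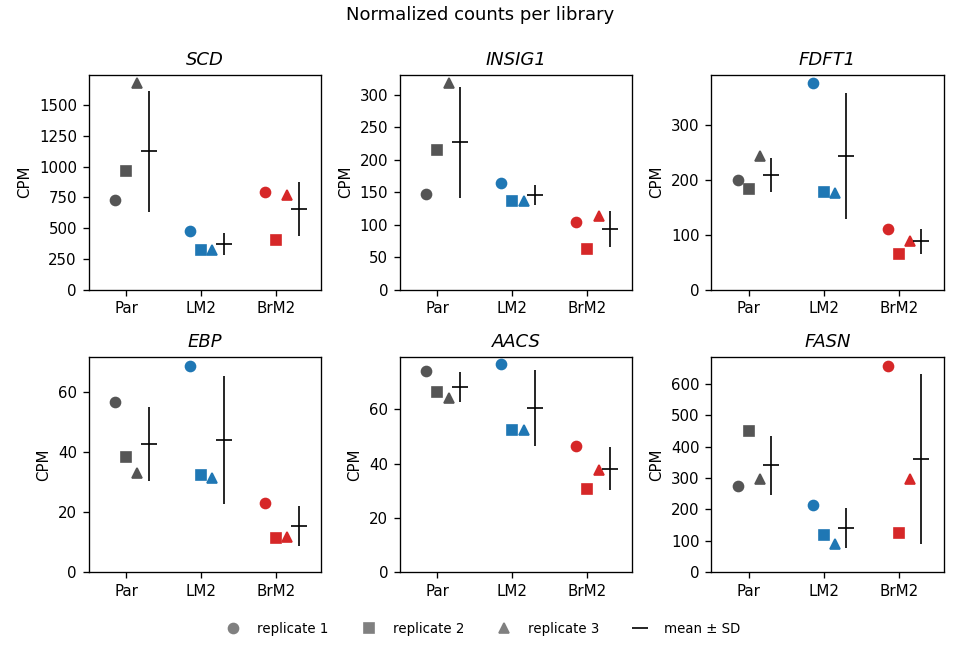
CPM of SCD, INSIG1, FDFT1, EBP, AACS and FASN in each library, with the replicate number as the symbol, the line as the colour and the mean with SD beside the points (linear axes from 0). BrM2 is below both other lines for INSIG1, FDFT1, EBP and AACS, SCD is lowest in LM2, and FASN ranges from 125 to 656 CPM in BrM2.

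Among the fatty acid genes, SCD fell in LM2. SCD encodes the desaturase that makes oleate from stearate, and per kilobase of exon it had the highest level of the 32 members in Par, at 215 CPM per kb, before ACLY at 105. It was at 728, 968 and 1680 CPM in Par, 475, 320 and 320 CPM in LM2 and 791, 403 and 770 CPM in BrM2. All LM2 libraries were below all Par libraries and BrM2 overlapped Par. SCD fell in LM2 to 33% of Par, a log2 fold change of -1.60 ± 0.38 (95% interval -2.45 to -0.75, adjusted p = 0.031), and to -2.05 ± 0.33 without replicate 1 (adjusted p = 0.0029). The call was lost without Par 2, Par 3, LM2 2, LM2 3 or BrM2 3 (adjusted p = 0.055 to 0.13). In BrM2 it was -0.78 ± 0.37 (adjusted p = 0.23), and -1.16 ± 0.32 without replicate 1 (adjusted p = 0.022).

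FASN, the fatty acid synthase, was at 275, 449 and 298 CPM in Par, 214, 117 and 91.1 CPM in LM2 and 656, 125 and 298 CPM in BrM2. LM2 was below every Par library, while BrM2 1 was the highest library of all and BrM2 2 was near LM2. The log2 fold change in LM2 was -1.28 ± 0.56 (adjusted p = 0.24), -1.45 ± 0.41 with the block (adjusted p = 0.020) and -1.84 ± 0.38 without replicate 1 (adjusted p = 0.0082). In BrM2 it was 0.08 ± 0.55 with all libraries and -0.80 ± 0.37 without replicate 1 (adjusted p = 0.96 and 0.12). With the block it was -0.18, so its sign depended on the fit. The log2 ratios of BrM2 to Par in replicates 1, 2 and 3 were 1.25, -1.84 and 0.00.

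ACSS2, which makes acetyl-CoA from acetate, was at 111, 77.4 and 106 CPM in Par, 94.5, 49.6 and 45.4 CPM in LM2 and 79.2, 52.8 and 60.3 CPM in BrM2. Both sublines were below Par at each replicate number, by -0.69 ± 0.17 in LM2 and -0.63 ± 0.17 in BrM2 with the block (adjusted p = 0.0084 and 0.011), against adjusted p = 0.32 and 0.28 without it. ELOVL6, the elongase of palmitate, was at 78.0, 144 and 152 CPM in Par, 37.1, 83.8 and 94.2 CPM in LM2 and 37.7, 96.9 and 95.8 CPM in BrM2. Both sublines were below Par at each number, with log2 fold changes of -0.85 ± 0.12 and -0.76 ± 0.12 with the block (adjusted p = 0.00043 and 0.00064), against adjusted p = 0.41 and 0.42 without it. ACLY, which makes cytosolic acetyl-CoA from citrate, ACACA, the carboxylase that makes malonyl-CoA, and the desaturases FADS1 and FADS2 passed neither of these tests in any comparison. Their log2 fold changes against Par lay between -0.28 and 0.30, and FADS2 was lower in LM2 without replicate 1 (-0.77 ± 0.17, adjusted p = 0.010). ACLY was higher in BrM2 than in LM2 without replicate 1 (0.38 ± 0.11, adjusted p = 0.037).

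BrM2 and LM2 were compared directly. The 32 members had a median log2 difference of 0.03 (BrM2 minus LM2), against -0.03 over all tested genes, and 1 member passed, FDFT1, which was lower, where 8.10% of all tested genes passed and 4.01% were lower. With the block, 7 were lower and 4 higher in BrM2 (37.5% of all tested genes called, 19.7% lower and 17.8% higher). Without replicate 1, 5 were lower and 1 was higher (32.6% called, 15.7% lower and 16.9% higher). With the block, the 7 lower genes were INSIG1, STARD4, AACS, HMGCS1, FDFT1, MSMO1 and EBP, with log2 differences of -0.43 to -1.50, of which INSIG1 and MSMO1 were not called without replicate 1 (adjusted p = 0.12 and 0.11). The 4 higher genes with the block were SREBF1 (0.83 ± 0.27, adjusted p = 0.034), MVD, FASN (1.28 ± 0.41, adjusted p = 0.032) and SCD (0.76 ± 0.27, adjusted p = 0.047). None of these 4 was called without replicate 1 (adjusted p = 0.064 to 0.086), where the 1 higher member was ACLY. All 8 fatty acid genes were fitted above 0 in this comparison, from 0.02 to 1.35, with 0 of 8 called by edgeR without the block (1 at an unadjusted p under 0.05, as were 20.9% of all tested genes) and 2 of 8 with it. In the group from lanosterol to cholesterol, 5 of 8 were fitted below 0. Among all 13018 tested genes, 6206 were fitted above 0 and 6811 below 0 in this comparison.

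Genes around these pathways were read from lists of 42 tested genes. In LM2, 6 of 42 passed (2 higher, 4 lower), or 14.3% against 8.67% of all tested genes, with 18 under the block (3 higher, 15 lower), or 42.9% against 34.5%. In BrM2, 4 of 42 passed (1 higher, 3 lower), or 9.52% against 13.2%, with 21 under the block (8 higher, 13 lower), or 50% against 42.7%. Between BrM2 and LM2, 5 passed (4 higher, 1 lower), or 11.9% against 8.10%, with 11 under the block (8 higher, 3 lower), or 26.2% against 37.5%. Of the 10 genes of sterol transport and efflux, 3 were lower in LM2 and 7 under the block, with 0 higher, where 4.51% and 19.0% of all tested genes were lower. In BrM2, 2 of the 10 were lower and 0 higher, where 7.00% of all tested genes were lower. Their median log2 fold change without the block was 0.09 in BrM2, against -0.66 in LM2. Under the block 3 of the 10 were lower and 2 higher in BrM2, where 23.2% of all tested genes were lower and 19.5% higher.

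The lipid exporters ABCA1 and ABCG1 had the largest fold changes of the 42 genes. ABCA1, which passes cholesterol to apolipoproteins, was at 64.9, 78.6 and 77.2 CPM in Par, 11.3, 19.1 and 13.1 CPM in LM2 and 7.67, 11.0 and 9.92 CPM in BrM2. It fell in LM2 by -2.34 ± 0.26 (adjusted p = 0.00076) and in BrM2 by -2.95 ± 0.26 (adjusted p = 0.00022) on the log2 scale, with no overlap between Par and either subline. ABCG1, another sterol exporter, was at 4.83, 3.53 and 2.12 CPM in Par, 0.447, 0.245 and 0.230 CPM in LM2 and 5.60, 2.96 and 4.12 CPM in BrM2. It had 9, 6 and 6 counts in LM2 and passed the filter in 2 Par, 3 BrM2 and 0 LM2 libraries. Its tests of LM2 against the other lines therefore rest in part on that selection. The log2 fold change of ABCG1 in LM2 was -3.51 ± 0.46 against Par (adjusted p = 0.0018), while BrM2 was 3.78 ± 0.46 above LM2 (adjusted p = 0.0014). ABCG1 is counted above among the related genes lower in LM2 and among those higher in BrM2 than in LM2.

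Among genes of cholesterol release in the lysosome, LIPA and NPC1 were higher in BrM2 than in LM2, while NPC2 was lower in BrM2 than in Par. LIPA, the acid lipase that frees cholesterol from its esters, was at 98.3, 77.3 and 113 CPM in Par, 53.2, 51.4 and 51.0 CPM in LM2 and 126, 116 and 129 CPM in BrM2. It fell in LM2 by -0.89 ± 0.18 (adjusted p = 0.017), and BrM2 was above LM2 by 1.25 ± 0.18 (adjusted p = 0.0036). NPC1, which exports cholesterol from the lysosome, was at 233, 209 and 234 CPM in Par, 202, 138 and 147 CPM in LM2 and 325, 275 and 278 CPM in BrM2, and was higher in BrM2 than in LM2 (0.85 ± 0.19, adjusted p = 0.026). NPC2, its soluble partner, was at 157, 170 and 164 CPM in Par, 120, 93.0 and 75.8 CPM in LM2 and 102, 57.7 and 68.8 CPM in BrM2, and fell in BrM2 (-1.10 ± 0.26, adjusted p = 0.022), with -0.77 in LM2 (adjusted p = 0.11) and a difference of -0.33 between BrM2 and LM2 (adjusted p = 0.53). The LIPA call in LM2 was lost without Par 1, Par 3, LM2 2 or LM2 3 (adjusted p = 0.058 to 0.077). Among single libraries left out, the NPC1 call was kept only without Par 1 or LM2 1 (adjusted p = 0.051 to 0.12 otherwise), and the NPC2 call was lost without Par 1, Par 2, Par 3, BrM2 2 or BrM2 3 (adjusted p = 0.054 to 0.10). MYLIP, a sterol-induced ubiquitin ligase chosen after its values were seen, was the remaining gene of transport that was higher in BrM2 than in LM2 (0.79 ± 0.18, adjusted p = 0.028).

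MBTPS2, the protease that makes the second cut in SREBP, was at 40.6, 55.6 and 65.0 CPM in Par, 13.9, 24.0 and 25.4 CPM in LM2 and 13.0, 25.9 and 24.6 CPM in BrM2. It was below Par in every library of both sublines and fell by -1.35 ± 0.34 in LM2 and -1.34 ± 0.34 in BrM2 (adjusted p = 0.044 and 0.033). Among single libraries left out, the LM2 call was kept only without BrM2 1 (adjusted p = 0.054 to 0.14 otherwise) and the BrM2 call only without Par 1, LM2 1 or LM2 3 (adjusted p = 0.055 to 0.12 otherwise). ELOVL7, a fatty acid elongase, was at 5.04, 4.99 and 6.33 CPM in Par, 11.0, 18.9 and 20.6 CPM in LM2 and 3.10, 4.46 and 5.32 CPM in BrM2, and rose in LM2 (1.62 ± 0.31, adjusted p = 0.011). This call was lost without Par 1, Par 2 or LM2 2 (adjusted p = 0.051 to 0.064). PDSS1, which makes the side chain of coenzyme Q from the same isoprenoid units, was at 14.4, 13.0 and 14.1 CPM in Par, 24.6, 25.0 and 24.5 CPM in LM2 and 27.4, 31.9 and 29.9 CPM in BrM2. It rose by 0.84 ± 0.17 in LM2 and 1.10 ± 0.17 in BrM2 (adjusted p = 0.015 and 0.0027), and the LM2 call was lost without Par 2, Par 3, LM2 2 or LM2 3 (adjusted p = 0.056 to 0.083).

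The tested genes within 2 Mb of a member were read for comparison. Around EBP on chromosome X, 46 of 48 genes were fitted below 0 in BrM2 against Par, with a median log2 fold change of -0.86. EBP itself was at -1.48. With the block, 41 of 48 were called lower and 1 higher, where 23.2% of all tested genes were lower, and EBP was at -1.53. In LM2 the same 48 genes had a median of -0.05. Around FDFT1 on chromosome 8, 13 of 13 were fitted below 0 in BrM2 with a median of -0.67, and against LM2 12 of 13 with a median of -1.13. Around MVD on chromosome 16, 3 of 38 were fitted below 0 in BrM2 and the median was 0.54. Over all tested genes, 6707 of 13018 were fitted below 0 in BrM2.

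The other members called without the block lay among genes as follows. With the block, 23.2% of all tested genes were lower and 19.5% higher in BrM2, and 19.0% were lower and 15.5% higher in LM2. AACS on chromosome 12, at -0.84 in BrM2, lay among 20 genes with a median of 0.32, 4 of which were fitted below 0 (1 lower and 8 higher with the block). INSIG1 on chromosome 7, at -1.28, lay among 10 genes with a median of -0.31, 7 of which were fitted below 0 (4 lower and 2 higher with the block). SCD on chromosome 10, at -1.60 in LM2, lay among 38 genes with a median of -0.34, 28 of which were fitted below 0 (16 lower and 0 higher with the block). Neighbours of members called only with the block are not given, other than those of MVD. The part of the neighbourhood in these differences was not tested.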

How the data were processed

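RNA from 3 lines with 3 replicates each was made into stranded mRNA libraries. The authors aligned the reads to hg38 with STAR 2.7.0, per the labels, and deposited counts per gene without normalization. The strand counted is not given in the sources used here. A second deposited table of the authors' DESeq2 comparisons (log2 fold changes and p-values) was not used.

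The count table had 58887 rows, and 3 rows that repeated an identifier with identical counts were dropped. A filter written after HTSFilter (100 thresholds from 1 to 200, loess span 0.3) kept 13018 genes with a normalized count over 47.15 in at least 1 library. The 2-sided quasi-likelihood test of edgeR 4.0.16 was fitted with TMM normalization over all 9 libraries and the lines as groups. Benjamini-Hochberg adjustment ran over all 13018 genes, with a threshold of 0.05, and the rows of the 32 members were read out. DESeq2 1.42.0, other normalizations and filters, the replicate block and left-out libraries were alternatives. R 4.3.3, Python 3.11.15 and matplotlib 3.10.9 were used. The scripts were tested on simulated data.

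After the mean of its line was removed, log2 CPM correlated across genes between libraries of equal replicate number at 0.23 to 0.90 in all pairs of lines, so the numbers were taken as pairing the libraries. The use of the numbers as a block was taken from the values, since no label states a pairing. The study describes the replicates as different passages. P-values measure the spread between these passages.

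Promoters and positions are from RefSeq on GRCh38.p14. Exon overlap, length and GC content are from GENCODE on GRCh37. Intervals and the floor of 3 counts cover counting error and the fitted spread only.

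The members, the lists of related genes and the tests were chosen with earlier results of these data known. Members were named with a value in every library where they were called in any comparison with or without the block, or had the largest fold change of their step. Of the related genes, at most 8 past the threshold with the largest fold changes were named, and MYLIP was added after its values were seen. Of 43 related genes listed, 42 were tested, and 1 was not analysed here.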

Additional observations from a re-analysis of the deposited data

Results flagged for a closer look

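FDFT1, which encodes squalene synthase, differed between the sublines. Its direct log2 difference (BrM2 minus LM2) was -1.47 (adjusted p = 0.031), in a model whose spread was estimated with the Par libraries too. FDFT1 was at 111, 64.2 and 87.8 CPM in BrM2 and 376, 177 and 176 CPM in LM2. LM2 1 was the highest library, and without it the difference was -1.01 (adjusted p = 0.040).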

How the results depend on the processing

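The replicate block moved the number of members called from 1 to 12 in LM2 vs Par, from 4 to 17 in BrM2 vs Par and from 1 to 11 in BrM2 vs LM2, and with DESeq2 and the block the numbers were 12, 17 and 8. Over all tested genes the block gave 4491, 5557 and 4887 calls in these comparisons, and DESeq2 with the block 4584, 5572 and 4927. DESeq2 without the block called 1886 genes and 2 members for LM2 vs Par, and 1817 genes and 2 members for BrM2 vs LM2. For BrM2 vs Par, DESeq2 without the block called INSIG1, AACS, FDFT1 and EBP, and also MSMO1 (adjusted p = 0.019). Without a filter on low counts, 3 members were called for LM2 vs Par, with 3 also called for BrM2 vs LM2. In BrM2 vs Par, RLE normalization, upper-quartile normalization and filterByExpr each left 1 member. With the libraries of only the 2 lines compared, 2 members were called in BrM2 vs Par. In BrM2 vs LM2 this setting called 0 members and 601 genes, where 4 members had an unadjusted p under 0.05 with all libraries. Apart from the 601, the calls over all genes without a filter, with other normalizations or filters and with only 2 lines are not given here.

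Leaving out single libraries or replicate numbers gave 0 to 17 members in LM2 vs Par, 0 to 18 in BrM2 vs Par and 0 to 7 in BrM2 vs LM2, and 70 to 4302, 154 to 5254 and 53 to 4244 genes. The highest numbers of genes came without replicate 1, where 15, 17 and 6 members were called, and with the block added 17, 18 and 7 members and 3639, 4796 and 3724 genes were. The number of members that differed in replicate 1 was 15 to 26, with 15 without LM2 1 and 16 without BrM2 1. Members with 1 direction at every replicate number, a count that can only stay or grow with fewer numbers, were 12, 17 and 17 with all libraries and 26, 27 and 23 without replicate 1, where the share of all genes went from 61.7% to 83.9%, 62.7% to 75.2% and 65.3% to 77%. The cause of the other changes was not tested. Of 59 gene results, each called with or without the block, 0 changed direction in any setting. Because they were chosen by calls in these same libraries, a change of direction was unlikely in advance. Across these results, 152 settings added a call and 129 removed one. FASN in BrM2 vs Par, which is not among them, was 0.08 with all libraries, -0.18 with the block and -0.80 without replicate 1. With 3 replicates per line, a change of the size of most members was inside the spread of the model without the block.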
